A study of Homo sapiens with 26 samples.

Results

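The AP-1, MYC and immediate early genes described here are 10 genes, FOS, FOSL1, FOSL2, JUN, JUNB, JUND, ATF3, EGR1, MYC and IER3, taken by symbol from 26485 gene symbols listed in each of 5 expression tables. All 10 were found in every table and all 10 passed the filter on low values in every comparison. mRNA-seq was performed in 3 established human cell lines of esophageal squamous cell carcinoma (ESCC), KYSE180, TE6 and KYSE150, in order to ask how loss or gain of BRDT and loss of p63 change transcription. KYSE180 cells received a control siRNA (siCont) or siRNA against BRDT (siBRDT) in 3 libraries each, and in a separate experiment siCont or siRNA against TP63 (siTP63) in 2 libraries each. TE6 cells received siCont, siBRDT or siTP63 (2 libraries each, 1 table), and KYSE150 cells siCont or siTP63 (2 libraries each). KYSE150 cells were also given a BRDT plasmid (BRDT-OE) or a control vector by electroporation (3 libraries each, per the study's methods). Knockdown cells were collected 48 h after transfection. The labels name 3 lines and no primary tissue, so each knockdown was seen in at most 3 genetic backgrounds and BRDT-OE in 1. They do not say whether replicates were separate cultures, so p-values measure only the spread between these samples, which may be technical.

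AP-1 is a dimeric transcription factor built from proteins of the FOS family (FOS, FOSL1, FOSL2) and the JUN family (JUN, JUNB, JUND), and in squamous epithelium its members are known for control of migration, matrix degradation and differentiation. FOS, JUN, EGR1, ATF3, IER3 and MYC are immediate early genes, transcribed within minutes of growth factor or stress signals without new protein synthesis, and their transcripts are short-lived. MYC drives genes of ribosome production and growth, EGR1 is a zinc-finger transcription factor induced through ERK and SRF, ATF3 is a stress-induced factor that can pair with JUN proteins, and IER3 is a survival factor of stressed cells. BRDT is a bromodomain protein of the BET family normally used in germ cells, and p63 is the master transcription factor of squamous cells.

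Immediate early promoters carry short elements through which signals act, and those of EGR1, FOS and JUN are shown because these genes were called in several comparisons and hold well-known elements of this kind. RefSeq promoters (GRCh38.p14) of 7 members were searched, which leaves out FOSL1, MYC and IER3. The 250 bases before the start of transcription are given 5′ to 3′ on the strand of the gene. Capitals mark the letters of a motif. For EGR1 (chr5:138465229-138465478, plus strand) they mark 2 CArG boxes, the site bound by SRF, 105 to 96 and 83 to 74 bases upstream, and 2 CRE half-sites (TGACGT or its complement ACGTCA). For FOS (chr14:75278578-75278827, plus strand) they mark 1 CRE half-site, the core of the site bound by CREB and ATF proteins, 64 to 59 bases upstream. For JUN (chr1:58784048-58784297, minus strand) they mark TGACATCA, the AP-1 variant through which JUN dimers act on JUN itself, 67 to 60 bases upstream.
EGR1: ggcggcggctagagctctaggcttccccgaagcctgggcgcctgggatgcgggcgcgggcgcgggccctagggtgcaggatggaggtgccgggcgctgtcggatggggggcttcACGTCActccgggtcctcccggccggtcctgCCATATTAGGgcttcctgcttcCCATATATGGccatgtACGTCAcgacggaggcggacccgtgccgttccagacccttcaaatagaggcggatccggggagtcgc
FOS: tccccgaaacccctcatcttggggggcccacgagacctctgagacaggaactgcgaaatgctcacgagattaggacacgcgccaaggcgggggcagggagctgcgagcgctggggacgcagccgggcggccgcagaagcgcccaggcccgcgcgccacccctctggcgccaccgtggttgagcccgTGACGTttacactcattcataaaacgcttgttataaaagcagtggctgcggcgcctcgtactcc
JUN: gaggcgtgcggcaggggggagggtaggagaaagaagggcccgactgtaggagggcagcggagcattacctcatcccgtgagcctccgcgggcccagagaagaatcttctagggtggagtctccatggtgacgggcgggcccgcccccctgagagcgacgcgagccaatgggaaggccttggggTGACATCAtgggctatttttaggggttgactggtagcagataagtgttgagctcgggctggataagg
Both strands of these windows were searched. Bases farther upstream were not, so elements there are not shown for any gene. Among 35116 promoters of the same length, a CArG box was present in 1.16%, TGACGT in 7.10% and TGACATCA in 2.37%. The first ATF3 promoter also held TGACATCA, 123 to 116 bases upstream, and the JUND promoter the full CRE (TGACGTCA, in 1.65% of promoters, overlapping the half-site), 200 to 193 bases upstream. A separate JUND half-site lay 87 to 82 bases upstream. A FOSL2 half-site lay 66 to 61 bases upstream. The E-box CACGTG (6.34% of promoters) and the consensus AP-1 site TGACTCA (4.20%) were not found in these windows. A match describes letters and not a bound site.

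The libraries held 7582089 to 19372441 reads in genes, replicates correlated at 0.975 to 0.995 across genes (Pearson, log2 values), and 3 reads corresponded to 1.99 to 4.72 normalised counts. The log2 fold change of BRDT was -2.75 under siBRDT in KYSE180, -2.23 in TE6 and 10.60 in BRDT-OE, while TP63 changed by -1.70, -4.45 and -2.34 under siTP63 in KYSE180, TE6 and KYSE150 (adjusted p = 0.082 in KYSE150, below 0.05 in the other lines). Of 7 squamous markers (KRT5, KRT14, KRT6A, TP63, SOX2, DSG3 and PERP), all were above 10 in some library of each KYSE180 and TE6 group. SOX2 stayed under 10 in KYSE150 and was not tested there. In KYSE180 6 were called down under siBRDT and 5 under siTP63, and in TE6 5 and 6. The siTP63 counts include TP63, the target of the siRNA. With BRDT-OE 2 were up and 1 down, and under siTP63 in KYSE150 none was called. The leukocyte gene PTPRC did not exceed 3.92. siBRDT replicate 1 of TE6 stood apart with 20995 genes above 0 against 16817 in replicate 2, and values without it are given where a call of the 10 genes depends on it. Interferon genes moved with several treatments. The summed level of ISG15, IFI6, IFIT1, IFIT2, IFIT3, MX1 and OAS1 in TE6 ranged over 1734 to 2016 with siCont, 19536 to 24047 with siBRDT and 12068 to 12795 with siTP63. In KYSE180 it ranged over 3871 to 4634 with siCont and 19348 to 19584 with siTP63 of the TP63 experiment, and over 6372 to 7121 and 6189 to 7468 in the BRDT experiment. In KYSE150 it ranged over 3408 to 4828 in vector controls and 865 to 965 with BRDT-OE, and over 1478 to 1758 with siCont and 1961 to 4296 with siTP63. The summed level of the endothelial genes PECAM1, CDH5 and VWF was higher with siTP63 than with siCont in each line, over 137 to 139 against 22.6 to 36.2 in KYSE180, 90.2 to 109 against 47.4 to 65.9 in TE6 and 89.2 to 153 against 11.8 to 29.7 in KYSE150, with at most 8.63 for PECAM1, 145 for CDH5 and 136 for VWF in any library. The summed level of the fibroblast genes COL1A1, COL1A2, DCN and LUM was also apart between groups, over 69.6 to 78.7 with BRDT-OE against 125 to 145 in vector controls, 739 to 899 with siTP63 against 546 to 618 in KYSE180 and 90.5 to 114 against 62.4 to 73.0 in KYSE150, with DCN at most 7.35. The part of these changes in the results on the 10 genes was not tested. In bulk RNA, fewer cells that express a gene and less RNA per cell cannot be told apart.

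Members were called in both directions in 4 of the 6 comparisons. Genes were called up or down where the Benjamini-Hochberg adjusted p over all tested genes (limma) was under 0.05 and the log2 fold change reached 0.5 in either direction. Under siBRDT in KYSE180, 4 of the 10 genes were called down (EGR1, ATF3, JUN, FOS) and 0 up, beside 15.8% of all genes called down and 14.5% called up. In TE6, siBRDT gave 2 down (EGR1, FOSL2) and 2 up (JUND, JUNB), beside 18.1% and 15.6% of all genes. siTP63 in KYSE180 gave 3 down (FOSL1, MYC, EGR1) and 2 up (JUN, FOSL2), beside 25.7% and 23.6%. siTP63 in TE6 gave the most calls, 5 down (FOSL1, EGR1, IER3, FOS, MYC) and 2 up (JUND, JUN), beside 20.6% and 18.3%. BRDT-OE in KYSE150 gave 4 down (ATF3, EGR1, JUNB, FOS) and 1 up (FOSL1), beside 16% and 10.5%. Under siTP63 in KYSE150 no member and none of 12335 genes was called (0%) by limma, with 3 members up and 1 down at an unadjusted p under 0.05, beside 8.67% and 9.12% of all genes. There edgeR called 0 genes and DESeq2 201 up and 261 down, and the count depended on the settings. Leaving out 1 library gave 108 to 182 genes up and 77 to 177 down, with 0 members called, and removing the length and GC trend gave 233 up and 343 down, with FOSL2 (0.88, adjusted p = 0.043) and JUNB (0.82, adjusted p = 0.045) called up. A missed threshold in this comparison does not show that a gene did not change.

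**Figure D1:**
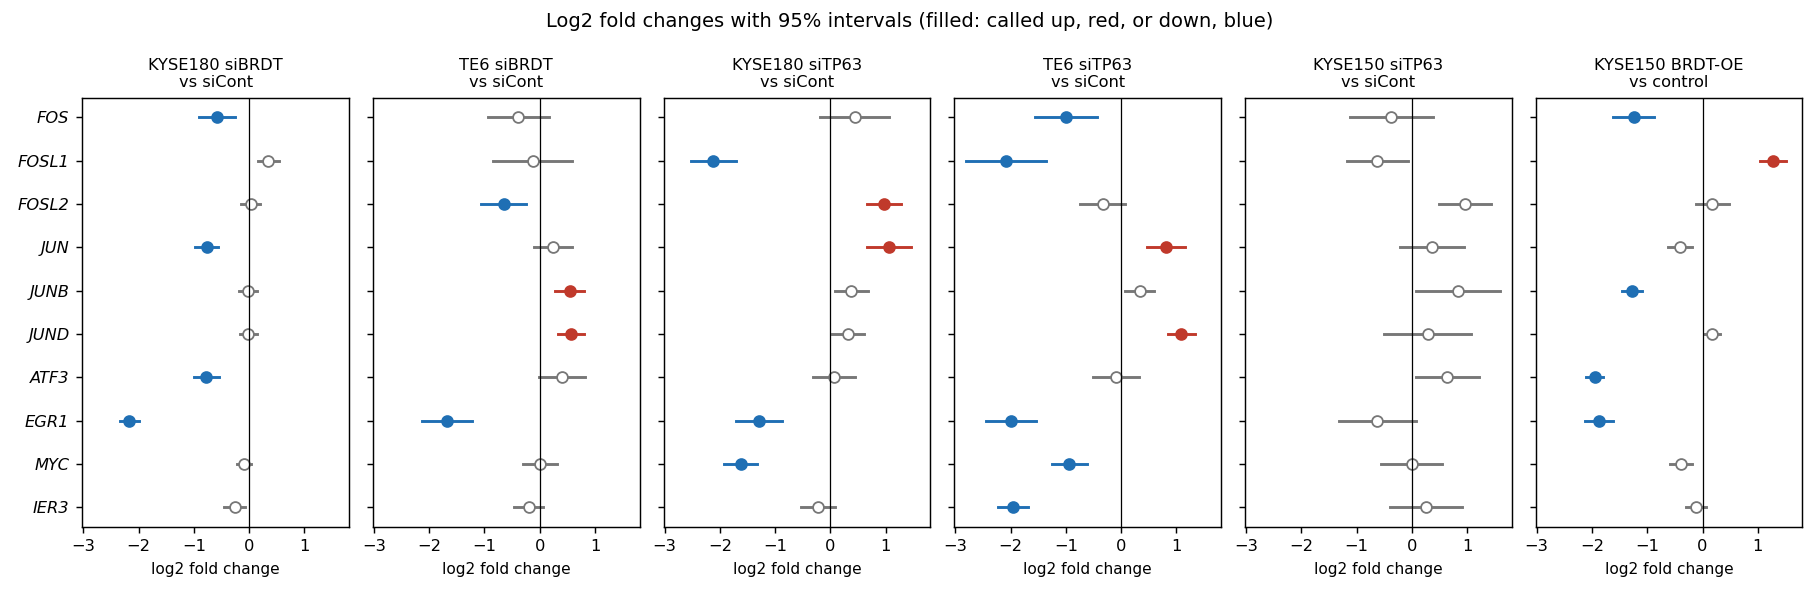
Log2 fold change (horizontal axis) of each of the 10 genes (rows) in the 6 comparisons (panels), with 95% intervals from limma; filled points were called up (red) or down (blue). EGR1 lies left of 0 in all 6 panels and is called in 5, between -2.17 and -1.29, while FOSL1 lies at -2.12 and -2.08 under siTP63 in KYSE180 and TE6 and at 1.28 with BRDT-OE.

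The median log2 fold change of the 10 genes was -0.18 under siBRDT in KYSE180 (all genes -0.0052), -0.060 under siBRDT in TE6 (all genes -0.039), 0.19 under siTP63 in KYSE180 (all genes 6.4e-04), -0.64 under siTP63 in TE6 (all genes -0.011), 0.27 under siTP63 in KYSE150 (all genes -0.0077) and -0.40 with BRDT-OE (all genes 0.017). In absolute size the median change was 0.97 under siTP63 in TE6 and 0.83 with BRDT-OE, against 0.44 and 0.30 for all genes. It was 0.70 under siTP63 in KYSE180 and 0.50 under siTP63 in KYSE150, against 0.54 and 0.32. Under siBRDT it was 0.30 in KYSE180 and 0.40 in TE6, near the 0.33 and 0.41 of all genes. The balance of directions over all genes rests in part on scaling. Rescaling the libraries to equal upper quartiles of the values above 0 moved the median of all genes to 0.22 in KYSE180 siTP63 and to 0.24 in TE6 siBRDT, and took the share of calls that were down from 52.1% to 35.4%, from 53.8% to 17.8% and, in BRDT-OE, from 60.3% to 71.6%. With the quartile taken over the tested genes only, a setting added after seeing the data, these shares were 36.7%, 49.3% and 74.0%.

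EGR1 (chromosome 5, 138465479 to 138469303, plus strand, 2 exons, GENCODE release 44 on hg38) was lower in treated than in control libraries in every experiment. In KYSE180 its normalised counts were 1178, 1219 and 1418 with siCont and 279, 289 and 276 with siBRDT. The groups were far apart, with a log2 fold change of -2.17 ± 0.081 (SE, adjusted p = 7.9e-11), and 0.50% of tested genes changed more. In TE6 it was counted at 173 and 155 with siCont, 55.0 and 46.6 with siBRDT and 39.1 and 41.4 with siTP63. Both knockdowns, which share the siCont libraries, left EGR1 below every control, with log2 fold changes of -1.67 ± 0.21 (SE, adjusted p = 5.9e-05) and -2.0 ± 0.21 (SE, adjusted p = 8.8e-06). In the TE6 siBRDT libraries EGR1 had 51 and 39 reads, the same as BRDT and as HIST1H2BC, and these were the only 3 of the symbols with that pair of counts. In the TP63 experiment in KYSE180, EGR1 went from 148 and 171 to 62.9 and 65.9, a log2 fold change of -1.29 ± 0.20 (SE, adjusted p = 7.6e-06). In KYSE150, siCont libraries had 131 and 98.9 and siTP63 libraries 78.1 and 69.2, without overlap but not past the threshold (-0.62 ± 0.28 SE, adjusted p = 0.32). With BRDT-OE it went from 2483, 1752 and 1987 to 591, 551 and 539, a log2 fold change of -1.87 ± 0.11 (SE, adjusted p = 2.8e-06). The treated group thus lay below its controls both where BRDT was removed and where it was added. All 5 called values remained called under every alternative run, between -1.08 (the weakest in KYSE180 siTP63) and -2.22 (the strongest in KYSE180 siBRDT).

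**Figure D2:**
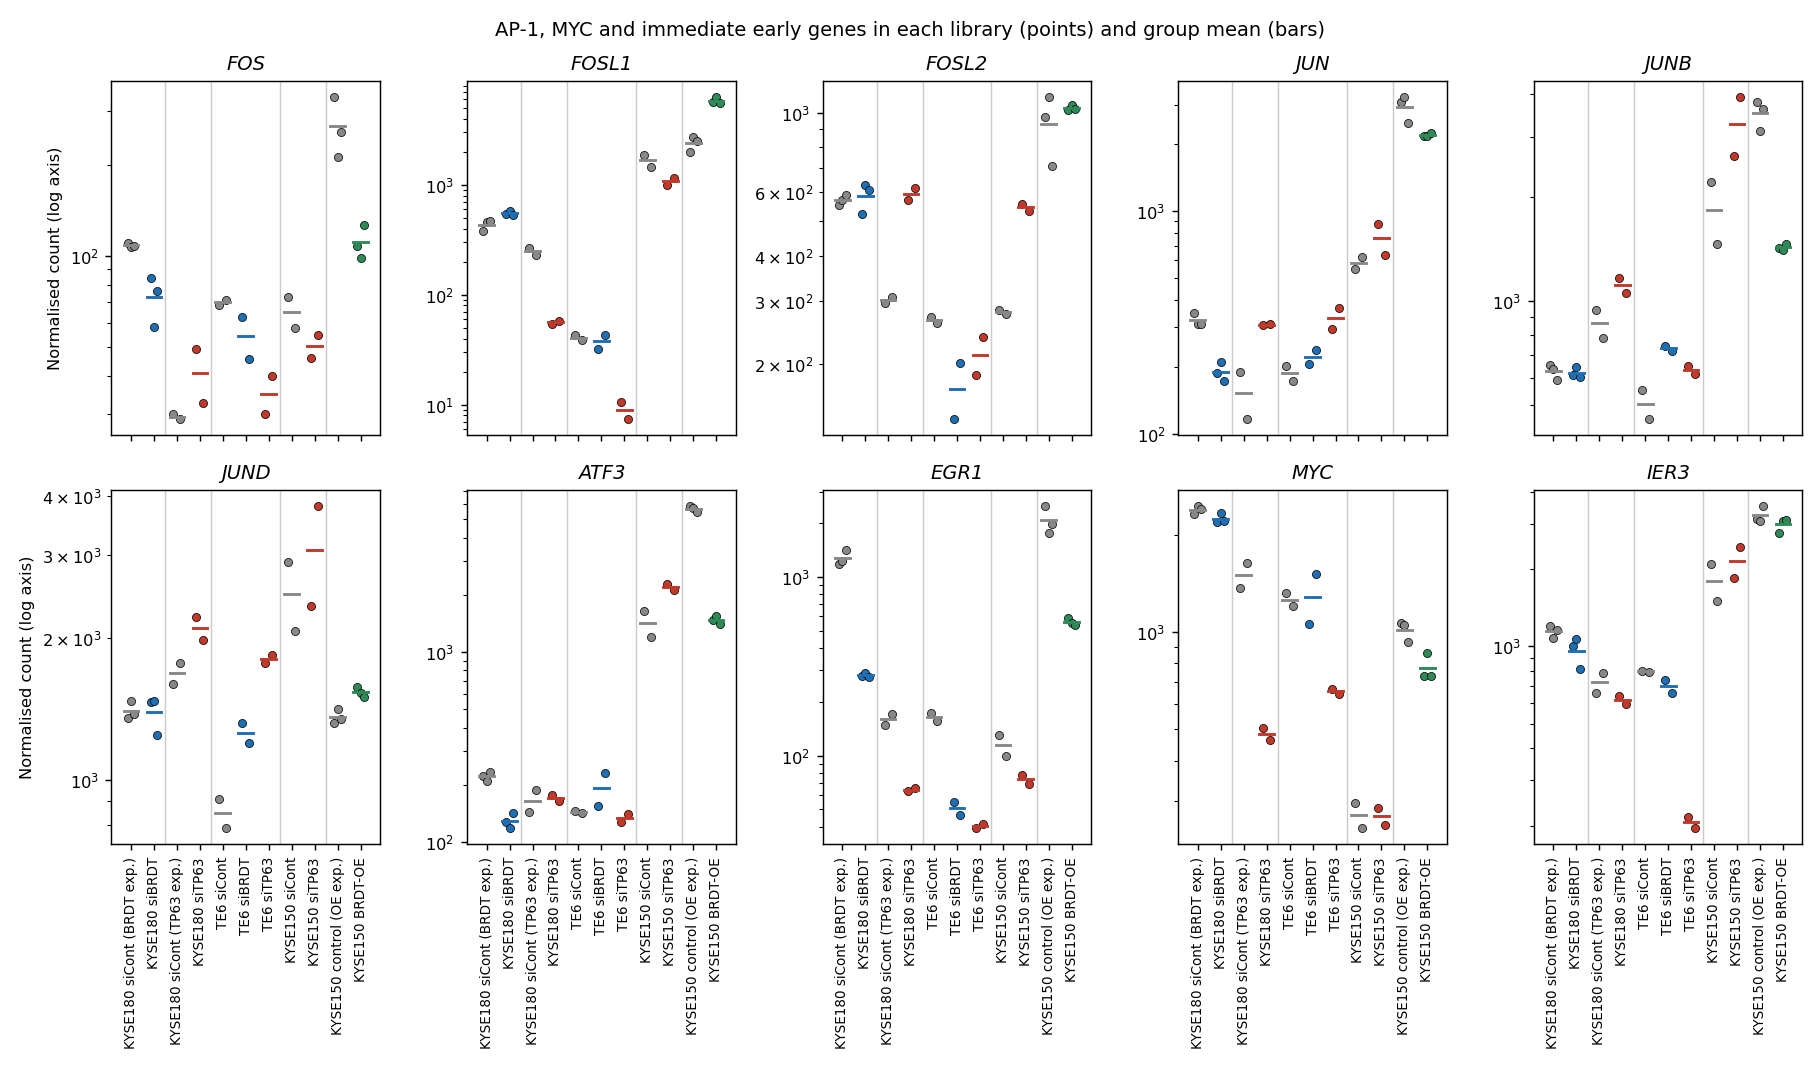
Normalised count (logarithmic vertical axes) of each of the 10 genes in every library (points) of the 11 groups, with the group mean as a bar; grey marks controls, blue siBRDT, red siTP63 and green BRDT-OE, and vertical lines separate the 5 tables, which were normalised separately. EGR1 falls below its controls in each table, and FOSL1 spans from 7.40 in TE6 siTP63 to 6286 in BRDT-OE.

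FOS, the founding member of its family (chromosome 14, 75278826 to 75282230, plus strand, 4 exons), was counted at 19 to 370 reads per library. Under siBRDT in KYSE180 it went from 110.3, 107 and 108 to 84.1, 57.9 and 76.6, below every control (-0.58 ± 0.15 SE, adjusted p = 0.0038), and without siBRDT replicate 2 the change of -0.43 was under the fold limit. In TE6 it was at 68.6 and 71.5 with siCont, 62.6 and 45.4 with siBRDT and 29.9 and 40.0 with siTP63. Only the siTP63 value was called (-1.0 ± 0.26 SE, adjusted p = 0.0061, siBRDT -0.39 ± 0.26 SE, adjusted p = 0.24), and it was lost without siCont replicate 2 (adjusted p = 0.064), without siTP63 replicate 1 (adjusted p = 0.067) and after upper-quartile rescaling (adjusted p = 0.069). In KYSE180 the siTP63 libraries at 49.1 and 32.6 were above the controls at 29.9 and 28.7, with an interval of the log2 fold change from -0.20 to 1.07. BRDT-OE libraries had 107, 98.1 and 127 against 334, 211 and 257 in controls, a called fall (-1.25 ± 0.17 SE, adjusted p = 2.0e-04). FOS and EGR1 were therefore both called down under siBRDT in KYSE180, under siTP63 in TE6 and with BRDT-OE.

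FOSL1, which encodes FRA1, the FOS protein most tied to carcinoma cell migration (chromosome 11, 65892049 to 65900573, minus strand, 4 exons), fell under siTP63 in KYSE180 and TE6 and rose with BRDT-OE. In KYSE180 it was at 267 and 229 with siCont and 54.5 and 58.0 with siTP63. In TE6 it was at 43.1 and 38.8 with siCont and 10.6 and 7.40 with siTP63 (16 and 5 reads). The groups did not overlap in either line, and the log2 fold changes were -2.12 ± 0.20 (SE, adjusted p = 2.1e-09) and -2.08 ± 0.33 (SE, adjusted p = 2.3e-04). siBRDT left FOSL1 at 32.4 and 43.0 in TE6, overlapping siCont (-0.13 ± 0.33 SE, adjusted p = 0.78). In KYSE180 it went from 377, 458 and 472 to 547, 580.0 and 533 under siBRDT, above every control but under the fold limit (0.35 ± 0.090 SE, adjusted p = 0.0039). KYSE150 had 1883 and 1455 with siCont and 988 and 1165 with siTP63 (-0.63 ± 0.22 SE, adjusted p = 0.24, not called). Under BRDT-OE it rose from 2005, 2719 and 2527 to 5625, 6286 and 5579.6, 2.41 times the control mean (1.28 ± 0.11 SE, adjusted p = 1.3e-05). This was the only member called up by BRDT-OE, JUND being called as well with the length and GC trend removed.

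FOSL2, which encodes FRA2 (chromosome 2, 28392448 to 28417317, plus strand, 4 exons), ran the other way under siTP63 in KYSE180. It rose from 296 and 307 to 571 and 616 (0.97 ± 0.15 SE, adjusted p = 5.1e-06). KYSE150 siTP63 libraries were at 557 and 534 against 282 and 276, a fold change of like size that missed the threshold (0.96 ± 0.19 SE, adjusted p = 0.12). In TE6 siTP63 gave -0.34 (adjusted p = 0.15), and siBRDT lowered FOSL2 from 269.9 and 260.1 to 140.3 and 201 (-0.66 ± 0.19 SE, adjusted p = 0.012). That call was lost without siBRDT replicate 1 (-0.40), without either siCont library (adjusted p = 0.093 and 0.083) and after rescaling (-0.38, adjusted p = 0.24). FOSL2 was not called in KYSE180 siBRDT (0.032 ± 0.082 SE, adjusted p = 0.76) or BRDT-OE (0.17 ± 0.14 SE, adjusted p = 0.30).

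JUN, the main transactivating partner of the FOS proteins (chromosome 1, 58776845 to 58784048, minus strand, a single exon), was called in opposite directions by the knockdowns in KYSE180. It fell from 349, 310.0 and 311 to 187, 209.6 and 172 under siBRDT (-0.77 ± 0.10 SE, adjusted p = 1.2e-05) and rose from 189 and 116 to 308 and 311 under siTP63 (1.06 ± 0.19 SE, adjusted p = 4.8e-05). Neither pair of groups overlapped. In TE6 it was at 202 and 171 with siCont, 205 and 237 with siBRDT and 295 and 365 with siTP63, and only the siTP63 rise was called (0.82 ± 0.16 SE, adjusted p = 0.0011, siBRDT 0.24 ± 0.16 SE, adjusted p = 0.24). In KYSE150 siTP63 gave 0.36 (adjusted p = 0.47). BRDT-OE libraries at 2183, 2171 and 2236 were below controls at 3083, 3254 and 2481, under the fold limit (-0.41 ± 0.10 SE, adjusted p = 0.0051), and the value was called without control replicate 3 (-0.53) and with quartiles over tested genes (-0.51).

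JUNB and JUND, JUN-family members with weaker transactivation that can oppose JUN, are single-exon genes on chromosome 19 (12791486 to 12793315, plus strand, and 18279694 to 18281622, minus strand). JUNB shares 259 exonic bases with HOOK2 on the other strand, and the library kit does not mark strand, so reads there cannot be told apart. With BRDT-OE JUNB fell from 3787, 3116 and 3609 to 1431, 1412 and 1468 (-1.28 ± 0.081 SE, adjusted p = 3.1e-06). JUND in the same libraries was slightly higher, at 1574, 1531 and 1502 against 1319, 1412 and 1344 (0.18 ± 0.067 SE, adjusted p = 0.047, under the fold limit), and was called up with the length and GC trend removed (0.55, adjusted p = 8.1e-05). In TE6, JUND was at 908 and 788 with siCont, 1318 and 1198 with siBRDT and 1769.5 and 1839 with siTP63. The siTP63 rise (1.09 ± 0.11 SE, adjusted p = 6.3e-06) stayed called under every alternative. The siBRDT rises of JUND (0.57 ± 0.11 SE, adjusted p = 0.0011) and JUNB (0.54 ± 0.12 SE, adjusted p = 0.0035, from 554 and 456 to 744 and 718) turned to -0.12 and -0.036 after removal, library by library, of the dependence of values on length and GC content, a setting added after seeing the data, and both fell under the threshold without siCont replicate 2 (0.47 and 0.40). The TE6 siTP63 value of JUNB (0.33) likewise turned to -0.10 with the trend removed. In KYSE180, siTP63 gave 0.37 ± 0.15 (SE, adjusted p = 0.030) for JUNB and 0.32 ± 0.14 (SE, adjusted p = 0.054) for JUND, and both were called after rescaling (0.59 and 0.54) and with the trend removed (0.81 and 0.81), JUNB also without siCont replicate 1 (0.51). siBRDT in KYSE180 gave 95% intervals of -0.17 to 0.14 for JUNB and -0.17 to 0.15 for JUND. In KYSE150 siTP63 JUNB was at 2633 and 3905 against 2219.9 and 1466 (0.83 ± 0.31 SE, adjusted p = 0.25).

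ATF3 (chromosome 1, 212565334 to 212620777, plus strand, 4 exons) was the member with the largest change in BRDT-OE. It fell from 5845, 5740.4 and 5446 to 1465, 1539 and 1402, a log2 fold change of -1.95 ± 0.068 (SE, adjusted p = 1.9e-07), and 1.55% of genes changed more. siBRDT in KYSE180 also lowered it, from 222, 209 and 232 to 128, 118 and 143 (-0.77 ± 0.11 SE, adjusted p = 2.4e-05). Both called values thus had the same sign, with BRDT removed in one line and added in another. In TE6, siBRDT libraries at 155 and 232 lay above siCont at 145 and 141 (0.40 ± 0.19 SE, adjusted p = 0.10), and the value was called without siBRDT replicate 1 (0.69) and after rescaling (0.68). siTP63 gave 0.062 ± 0.19 (SE, adjusted p = 0.79) in KYSE180 and -0.093 ± 0.19 (SE, adjusted p = 0.71) in TE6. In KYSE150 it gave 2267 and 2121 against 1644 and 1197 (0.64 ± 0.23 SE, adjusted p = 0.24).

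MYC fell under siTP63 in KYSE180 and TE6 and was not called under siBRDT in either line. In KYSE180 it went from 1368 and 1634 to 505 and 462 (-1.63 ± 0.15 SE, adjusted p = 1.1e-09). In TE6 it went from 1318 and 1201 to 667 and 645 (-0.94 ± 0.14 SE, adjusted p = 1.8e-04). The groups were apart in both lines and both calls held under every alternative. siBRDT libraries had 2185, 2327 and 2206 against 2312, 2447 and 2401 in KYSE180, with a 95% interval of -0.22 to 0.035, and 1061 and 1506 in TE6, with an interval of -0.31 to 0.32. KYSE150 siTP63 libraries at 287 and 253 overlapped siCont at 295 and 247 (-0.0059 ± 0.22 SE, adjusted p = 0.99). BRDT-OE libraries at 732, 861 and 733 lay below controls at 1065, 1049.8 and 931, under the fold limit (-0.39 ± 0.091 SE, adjusted p = 0.0049). MYC shares 194 exonic bases with CASC11 on the other strand.

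IER3 (chromosome 6, 30743199 to 30744548, minus strand, 2 exons, 440 exonic bases shared with IER3-AS1 on the other strand) was called in a single comparison. In TE6 it was at 804 and 797 with siCont, 738 and 658 with siBRDT and 217 and 195 with siTP63. Only siTP63 passed the threshold (-1.95 ± 0.12 SE, adjusted p = 1.7e-07, siBRDT -0.20 ± 0.12 SE, adjusted p = 0.20), although with the length and GC trend removed the siBRDT value was called as well (-0.74, adjusted p = 3.1e-04). In KYSE180, siTP63 gave -0.22 ± 0.15 (SE, adjusted p = 0.19), which turned to 0.27 with the length and GC trend removed, and siBRDT -0.26 ± 0.090 (SE, adjusted p = 0.022). KYSE150 had 1496 to 3517 normalised counts in all libraries of both tables, with 0.26 under siTP63 (adjusted p = 0.66) and -0.12 with BRDT-OE (adjusted p = 0.24, 0.066 with the trend removed).

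Whether the responses differed between lines was tested as the difference of 2 log2 fold changes, each estimated within its table (limma contrasts, adjusted over 13931 genes, with no fold limit). The spread of each gene was estimated once over all 26 libraries, so these SEs can be smaller or larger than those within a table. For siBRDT against siTP63 in TE6 the SE was 0.18 for FOSL1 and 0.16 for JUND. Within the TE6 table it was 0.33 and 0.11 for each knockdown against siCont. For siBRDT, the TE6 response minus that of KYSE180 was higher for ATF3 (1.17 ± 0.21 SE, adjusted p = 7.7e-04) and JUN (1.01 ± 0.24 SE, adjusted p = 0.0064) and lower for FOSL2 (-0.69 ± 0.22 SE, adjusted p = 0.028), which is 2 of 10 higher and 1 lower beside 10.2% and 12.6% of all genes. The FOSL2 difference was lost without TE6 siBRDT replicate 1 (-0.43, adjusted p = 0.19) and without any 1 of 5 other libraries (adjusted p = 0.057 to 0.081). For EGR1 the difference was 0.49 with an interval of 0.061 to 0.92 (adjusted p = 0.088).

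For siTP63, the TE6 response minus that of KYSE180 was lower for IER3 (-1.73 ± 0.22 SE, adjusted p = 1.1e-05), FOS (-1.43 ± 0.35 SE, adjusted p = 0.0021), FOSL2 (-1.31 ± 0.24 SE, adjusted p = 1.9e-04) and EGR1 (-0.71 ± 0.23 SE, adjusted p = 0.014), 4 of 10 beside 23.7% of all genes. The EGR1 difference was lost without KYSE180 siCont replicate 1 or TE6 siCont replicate 1 (adjusted p = 0.062 and 0.055). The TE6 response was higher for JUND (0.77 ± 0.23 SE, adjusted p = 0.0090) and MYC (0.69 ± 0.20 SE, adjusted p = 0.0060), 2 of 10 beside 25.7%. The JUND difference was lost after rescaling over values above 0 (0.64, adjusted p = 0.072). The fall of MYC was smaller in TE6. For FOSL1 the difference was 0.035, with an interval of -0.49 to 0.56. KYSE150 differed from KYSE180 in MYC (1.62 ± 0.20 SE, adjusted p = 9.2e-06), FOSL1 (1.49 ± 0.25 SE, adjusted p = 3.0e-04) and EGR1 (0.67 ± 0.23 SE, adjusted p = 0.031), all higher, 3 of 10 beside 17.6% of all genes, with 0 lower beside 11.5%. Against TE6, KYSE150 was higher in IER3 (2.21 ± 0.22 SE, adjusted p = 6.3e-07), FOSL1 (1.46 ± 0.25 SE, adjusted p = 4.5e-04), EGR1 (1.38 ± 0.23 SE, adjusted p = 3.1e-04), FOSL2 (1.30 ± 0.24 SE, adjusted p = 7.8e-04), MYC (0.93 ± 0.20 SE, adjusted p = 0.0022) and ATF3 (0.74 ± 0.23 SE, adjusted p = 0.027), 6 of 10 beside 11.9%, and lower in JUND (-0.81 ± 0.23 SE, adjusted p = 0.018), 1 of 10 beside 10%. The EGR1 difference from KYSE180, and those of ATF3 and JUND from TE6, were each lost in several alternatives, including without KYSE150 siCont replicate 2 for EGR1 (adjusted p = 0.17) and ATF3 (adjusted p = 0.11) and without KYSE150 siTP63 replicate 1 for JUND (adjusted p = 0.13).

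**Figure D3:**
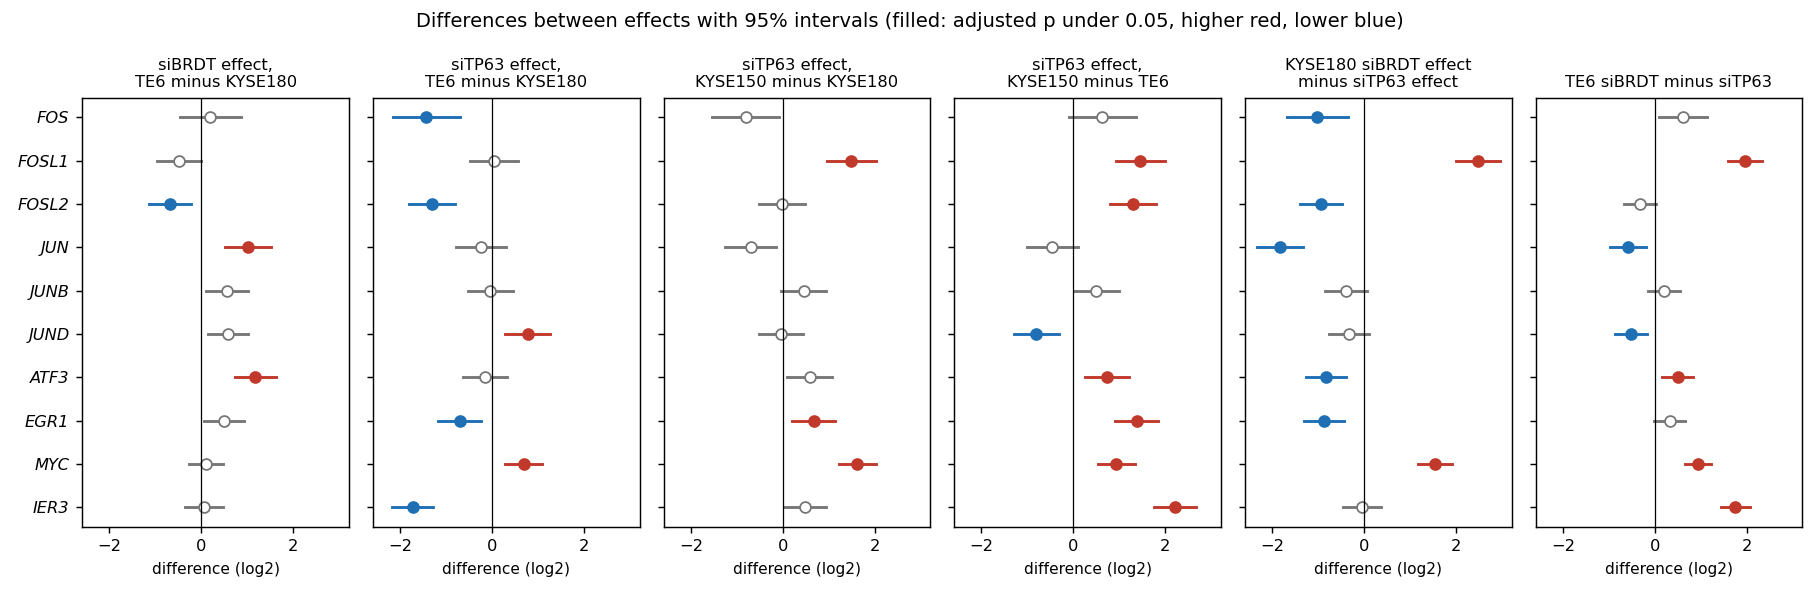
Differences of log2 fold changes (horizontal axis) with 95% intervals for the 10 genes (rows) in 6 contrasts (panels); filled points passed an adjusted p of 0.05 (red higher, blue lower). FOSL1 and MYC are well right of 0 in both panels that set siBRDT against siTP63, and IER3 is at -1.73 where TE6 is set against KYSE180.

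BRDT and p63 were set against each other within a line, as the study asks how far they act together. siBRDT also lowered TP63 itself, from 9399.6, 9933 and 10366 to 5924, 6724 and 7223 in KYSE180 (-0.58 ± 0.074 SE, adjusted p = 8.8e-06) and from 2596 and 2785 to 1282 and 1147 in TE6 (-1.15 ± 0.12 SE, adjusted p = 2.0e-05), where siTP63 left 133 and 112. In KYSE180 both effects come from separate experiments with their own controls, so the target and the experiment cannot be told apart there. In KYSE180 the siBRDT effect minus the siTP63 effect was 2.47 ± 0.23 (SE, adjusted p = 2.9e-08) for FOSL1 and 1.54 ± 0.18 (SE, adjusted p = 5.0e-07) for MYC, 2 of 10 higher beside 27.7% of all genes. It was -1.83 ± 0.24 (SE, adjusted p = 2.6e-06) for JUN, -1.02 ± 0.32 (SE, adjusted p = 0.011) for FOS, -0.94 ± 0.22 (SE, adjusted p = 0.0011) for FOSL2, -0.88 ± 0.21 (SE, adjusted p = 0.0014) for EGR1 and -0.83 ± 0.21 (SE, adjusted p = 0.0024) for ATF3, 5 of 10 lower beside 24.2%. The FOS difference was lost without KYSE180 siTP63 replicate 1 (-0.73, adjusted p = 0.094). In TE6 siBRDT libraries were compared with siTP63 libraries of the same table, with the spread again estimated over all 26 libraries. FOSL1 (1.96 ± 0.18 SE, adjusted p = 4.9e-08), IER3 (1.75 ± 0.15 SE, adjusted p = 2.8e-08), MYC (0.95 ± 0.14 SE, adjusted p = 2.1e-05) and ATF3 (0.50 ± 0.16 SE, adjusted p = 0.023) were higher with siBRDT, 4 of 10 beside 16.8%, and JUN (-0.57 ± 0.19 SE, adjusted p = 0.022) and JUND (-0.52 ± 0.16 SE, adjusted p = 0.019) lower, 2 of 10 beside 15.7%. In both lines the siTP63 effect was below the siBRDT effect for FOSL1 and MYC and above it for JUN. After rescaling over values above 0 the TE6 differences of JUN (-0.38, adjusted p = 0.13) and JUND (-0.33, adjusted p = 0.23) were lost. With 1 siBRDT or siTP63 library of TE6 left out in turn, the difference ran from -0.73 to -0.42 for JUN. It ran from -0.59 to -0.45 for JUND and from 0.21 to 0.78 for ATF3. The JUN difference was lost in 2 of these runs, and the JUND and ATF3 differences in 3 each. Among them were JUN without siBRDT replicate 1, and ATF3 and JUND without siBRDT replicate 2. EGR1 did not differ past the threshold between both knockdowns in TE6 (0.32, interval -0.011 to 0.66).

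Because AP-1 proteins compete for partners, the make-up of each family was computed per library from reads per kilobase of the MANE transcript, a scale on which levels of different genes can be set side by side. FOSL1 made up 93.1% ± 0.666 (mean ± SD over libraries) of the 3 FOS-family transcripts in KYSE150 siCont, 71.2% ± 2.53 in KYSE180 siCont of the TP63 experiment and 24.8% ± 1.38 in TE6 siCont. With siTP63 its share was 85.7% ± 1.36, 23.5% ± 0.933 and 10.2% ± 3.92 in the same lines. FOSL2 then held 62.7% ± 3.07 in KYSE180 and 58.9% ± 1.87 in TE6, against 22.0% ± 2.21 and 40.8% ± 0.287 with siCont. BRDT-OE took FOSL1 from 84.0% ± 3.93 to 94.3% ± 0.450 of the FOS family. In the JUN family JUND led in KYSE180 and TE6, at 62.1% ± 1.72 and 56.9% ± 0.837 in siCont (BRDT experiment for KYSE180). JUND also led in KYSE150 siCont, at 52.0% ± 0.0717 against 40.4% ± 2.32 for JUNB. With siTP63 in KYSE150 JUNB held 49.4% ± 0.193 and JUND 43.7% ± 3.13. In the control libraries of the overexpression experiment, also KYSE150, JUNB led with 54.3% ± 4.18. With BRDT-OE JUNB held 34.8% ± 0.494, JUND 35.3% ± 0.849 and JUN 29.9% ± 0.368. These shares are descriptions without a test, and size factors do not enter them.

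**Figure D4:**
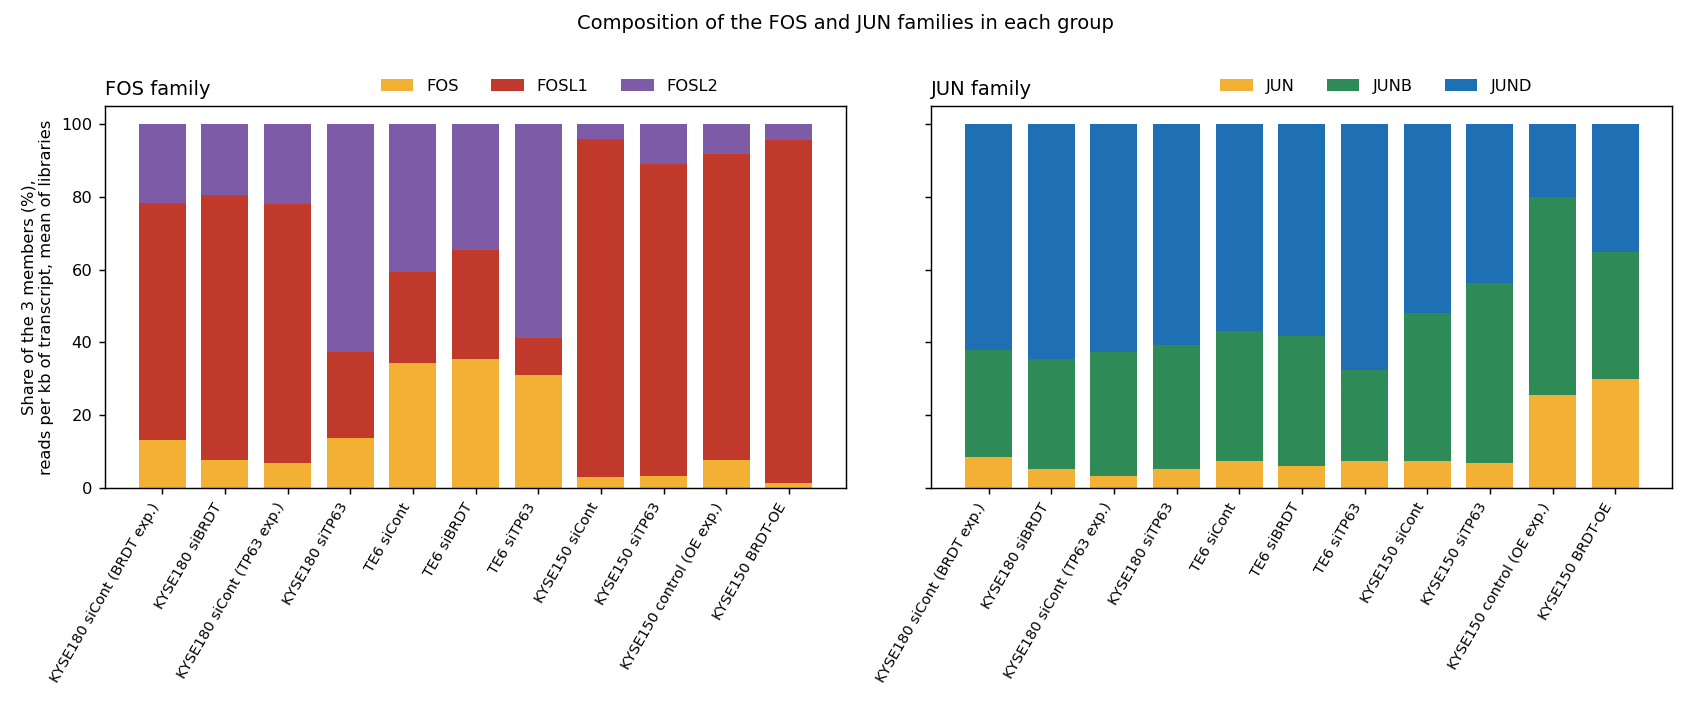
Mean share (%, vertical axis from 0) of each FOS-family (left) and JUN-family (right) gene among reads per kilobase of transcript in the 11 groups (2 or 3 libraries each). FOSL1 is the largest part of the FOS bars in every KYSE150 group and in KYSE180 except under siTP63, where FOSL2 takes its place.

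Other genes of these pathways were counted from lists, to be read beside the shares of all genes called up and down, 14.5% and 15.8% under siBRDT in KYSE180, 15.6% and 18.1% under siBRDT in TE6, 23.6% and 25.7% under siTP63 in KYSE180, 18.3% and 20.6% under siTP63 in TE6 and 10.5% and 16% with BRDT-OE. The counts over these lists come from the main fit only and were not rerun after rescaling or without single libraries. The list of 27 MYC-linked ribosome biogenesis targets, all tested, also holds other growth and metabolic genes, such as LDHA, TFRC and CDK4. Of the 27, 24 fell and 0 rose under siTP63 in KYSE180 (median -1.33), led by NME1, a nucleotide kinase (mean 5429 in controls and 972 in treated, -2.48). Under siTP63 in TE6, where MYC also fell, 8 fell and 0 rose (median -0.30), led by LDHA (-1.44). In BRDT-OE 20 rose and 0 fell (median 0.60), led by TFRC, the transferrin receptor (mean 4559.7 in controls and 10731 in treated), while MYC itself was at -0.39. siBRDT raised 10 and lowered 0 in KYSE180 (MRTO4 0.80) and raised 11 and lowered 2 in TE6 (PPAN 1.34, TFRC -1.0), with MYC called in neither. Under siTP63 in KYSE150 none was called (median -0.39, 3 down and 0 up at an unadjusted p under 0.05). In the MYC network, of 12 tested 6 rose and 1 fell under siTP63 in KYSE180, with MYCL, a MYC paralog, up by 1.51 and MXD3, a MAX partner that opposes MYC, at -0.92. Of 11 tested 4 rose and 0 fell under siTP63 in TE6 (MXD4 1.80), 1 rose and 2 fell under siBRDT in KYSE180 (MYCL 0.64, MXD4 -0.67), 0 were called under siBRDT in TE6 by limma (2 up and 1 down at an unadjusted p under 0.05), and 2 rose and 4 fell with BRDT-OE (MAX 0.63, MYCL -1.42).

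**Figure D5:**
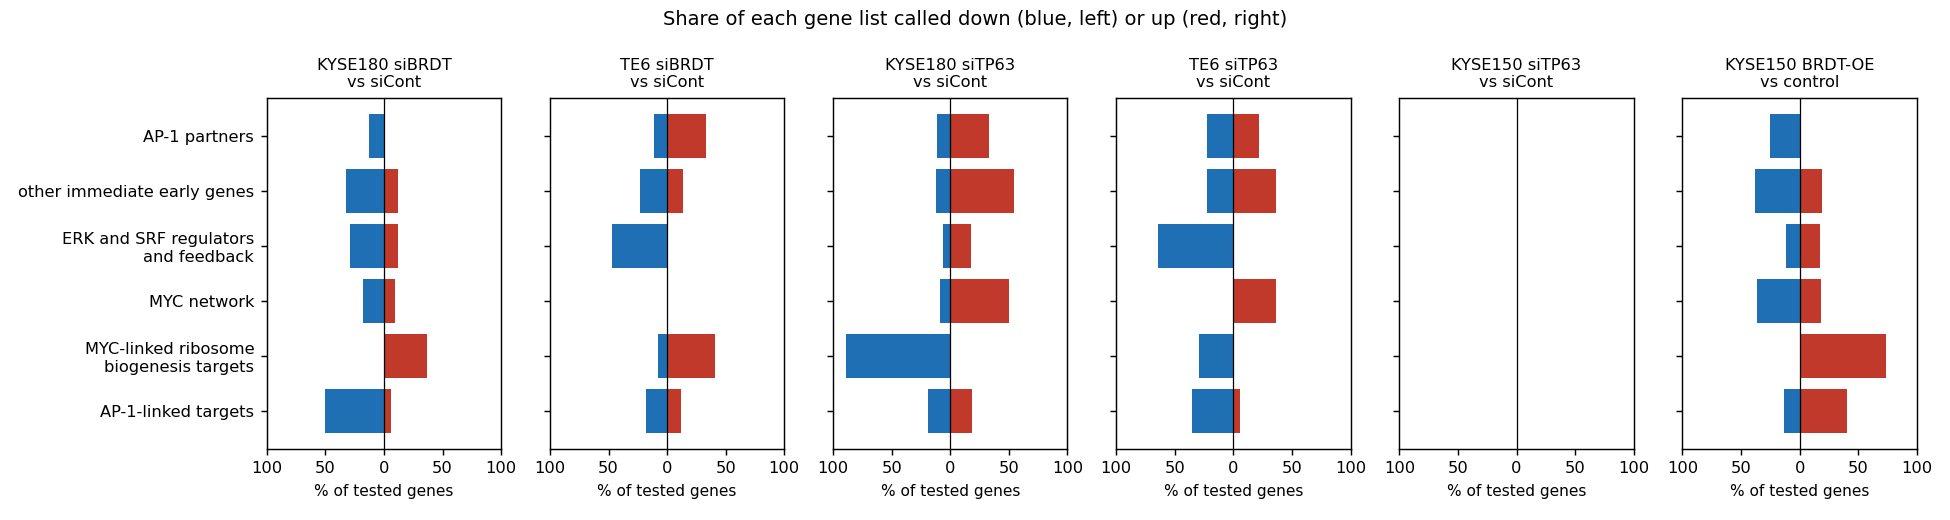
Share of the tested genes of each list (rows) called up (red, to the right) or down (blue, to the left), in % on the horizontal axis, for the 6 comparisons (panels). The bars of the MYC-linked ribosome biogenesis list, which also holds other growth genes, point down under siTP63 in KYSE180 (24 of 27) and up with BRDT-OE (20 of 27). The KYSE150 siTP63 panel is empty because no gene was called there.

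Of 17 regulators and feedback genes of ERK and SRF, 11 fell and 0 rose under siTP63 in TE6 (median -0.83), led by DUSP6, an ERK phosphatase induced by ERK (-2.30), and 8 fell and 0 rose under siBRDT in TE6 (median -0.51), led by SPRED1 (-1.35). SPRED1 was at 260 ± 5.59 (mean ± SD) with siCont and at 117 ± 82.2 with siBRDT. Over all genes, calls down under siBRDT in TE6 went from 2419 to 588 with rescaling over values above 0 and to 2186 with rescaling over tested genes. In KYSE180, siBRDT lowered 5 and raised 2, with ELK3, an SRF partner, lowered (mean 976 in controls and 243 in treated, -2.0) and DUSP5 at 0.53. siTP63 in KYSE180 raised 3, among them SPRY2 (1.36), and lowered 1. BRDT-OE raised 3, led by DUSP4 (1.52), and lowered 2, led by MAPK3 (-0.66). Among other immediate early genes, 13 of 24 tested rose and 3 fell under siTP63 in KYSE180, with CTGF at 2.0 and PHLDA1 at -2.26, and 8 of 22 rose and 5 fell under siTP63 in TE6, with CYR61 at 2.13 and PHLDA1 at -3.35. siBRDT raised 3 and lowered 8 of 25 in KYSE180 (TRIB1 1.05, CYR61 -1.01) and raised 3 and lowered 5 of 22 in TE6 (KLF4 1.48, PHLDA1 -0.83). BRDT-OE raised 5 and lowered 10 of 26, with the kinase gene SGK1 at 1.46 and ID1 at -1.76. In KYSE150 siTP63, 8 of 23 were up and 0 down at an unadjusted p under 0.05, with none called.

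Among AP-1 partners, JDP2, a repressor that dimerises with JUN proteins, rose under siTP63 in KYSE180 (mean 379 in controls and 2287 in treated, 2.58), under siTP63 in TE6 (mean 229 in controls and 1797 in treated, 2.97) and under siBRDT in TE6 (mean 229 in controls and 768 in treated, 1.74), and fell with BRDT-OE (mean 545 in controls and 195 in treated, -1.48). JDP2 was not called under siBRDT in KYSE180 or under siTP63 in KYSE150. Over the list of AP-1 partners, 3 rose and 1 fell of 9 tested under siTP63 in KYSE180, and 2 and 2 of 9 under siTP63 in TE6. Under siBRDT 3 rose and 1 fell of 9 in TE6 (ATF2 -1.27), and 0 and 1 of 8 in KYSE180 (ATF2 -0.59). With BRDT-OE 0 rose and 2 fell of 8, and none was called under siTP63 in KYSE150. The 2 and 2 of 9 in TE6 lie near the shares of all genes. Genes commonly tied to AP-1, such as matrix proteases and cytokines, fell in 8 cases and rose in 1 of 16 under siBRDT in KYSE180 (median -0.54), led by PLAU, the urokinase gene (mean 233 in controls and 61.4 in treated, -1.91), while HMOX1 rose by 1.21. Under siTP63 in KYSE180 PLAU rose by 1.54 and MMP10 fell (-2.58), with 3 of 16 up and 3 down, near the shares of all genes. In TE6, 1 rose and 6 fell of 17 under siTP63 (CD44 -1.09) and 2 rose and 3 fell under siBRDT (PLAUR 0.92, CD44 -0.78). BRDT-OE raised 6 of 15, led by CCND1, the cyclin D1 gene (mean 4111 in controls and 8710.4 in treated, 1.09), and lowered 2, among them IL6 (-0.95). In KYSE150 siTP63 none of 13 was called (4 up and 1 down at an unadjusted p under 0.05).

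Genes whose pattern over the 26 libraries was most like each member were taken from 11337 genes, with log2 values centred on the control mean of each table. These correlations describe libraries that share treatments and, in TE6, controls. FOSL1 was most like SLC37A2 (Pearson r = 0.98) and SETMAR (0.96), ATF3 like GABARAPL1 (0.96), JUNB like SCARF2 (0.95), MYC like ZFP64 (0.95), JUND like RAB11B (0.95), FOSL2 like STAT3 (0.93), JUN like HELZ2 (0.92), FOS like LOC100289230 (0.92), EGR1 like TINAGL1 (0.89) and IER3 like ALDH3A1 (0.88). The second gene was AKAP13 for FOSL2 (0.92), YBX3 for MYC (0.91), MYH14 for JUNB (0.95), H1F0 for ATF3 (0.95), VPS37C for JUN (0.92), METRNL for JUND (0.92), S100PBP for FOS (0.91), CLIP2 for EGR1 (0.88) and FAT2 for IER3 (0.87). Among the 10 genes themselves the closest pairs were JUNB with ATF3 (0.89), FOS with EGR1 (0.68) and FOSL1 with MYC (0.67), and the most opposed were FOSL1 and JUN (-0.84).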

How the data were processed

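mRNA-seq libraries (26 in 11 groups, 5 tables) were analysed. Each table deposited by the authors holds a normalised signal, in which the counts of a library were divided by its size factor, set separately per table. The submitters' processing notes name STAR 2.6.0, HTSeq 0.11.2 and DESeq2 1.24.0 with hg38, and the annotation and strand setting are not given in the sources used here. Whole reads were recovered for 100% of values (tolerance 0.001) and used only for depth, shares and count tests. Groups were taken from the sample labels. log2(value + 1), which understates changes of low genes, was tested with limma 3.58.1 (R 4.3.3, trended variance) in each table for genes with a mean of at least 10, called at a Benjamini-Hochberg adjusted p of 0.05 and a log2 fold change of 0.5. Contrasts of effects used all 26 libraries and no fold limit. Intervals are 95% intervals, and the floor of 3 reads covers counting error only. The 10 genes, gene lists and markers were chosen with earlier results of these data known. All 10 genes are named, and from each list the called gene with the largest rise and fall, mean at least 100 and no overlap of groups. Alternatives were a pseudocount of 0.1, no filter, no fold limit, rescaling, edgeR 4.0.16, DESeq2 1.42.0, the replicate block and leaving out each library, and, added after seeing the data, rescaling over tested genes, removal of the trend on transcript length and GC content, and a crossed block. Transcript lengths came from MANE (GENCODE release 44) and promoters from RefSeq. Scripts (Python 3.11.15, matplotlib 3.10.9) were tested on simulated data. Markers of immune cells, fibroblasts and endothelium were looked up in every library, with summed immune markers of at most 23.0, and the other sums stand with the results.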

Additional observations from a re-analysis of the deposited data

Results flagged for a closer look

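Log2 fold changes of the same knockdown differed between cell lines for 19 combinations of gene and pair of lines, each by a limma contrast adjusted over all genes tested. Of all genes, 10.2% were higher and 12.6% lower in the siBRDT contrast, and 25.7% and 23.7% in the siTP63 contrast of TE6 minus KYSE180. For KYSE150 under siTP63 the shares were 17.6% and 11.5% against KYSE180 and 11.9% and 10% against TE6. The siBRDT effect (TE6 minus KYSE180) came to -0.69 for FOSL2 (adjusted p = 0.028), 1.01 for JUN (adjusted p = 0.0064) and 1.17 for ATF3 (adjusted p = 7.7e-04). The siTP63 effect (TE6 minus KYSE180) came to -1.43 for FOS (adjusted p = 0.0021), -1.31 for FOSL2 (adjusted p = 1.9e-04), 0.77 for JUND (adjusted p = 0.0090), -0.71 for EGR1 (adjusted p = 0.014), 0.69 for MYC (adjusted p = 0.0060) and -1.73 for IER3 (adjusted p = 1.1e-05). The siTP63 effect (KYSE150 minus KYSE180) came to 1.49 for FOSL1 (adjusted p = 3.0e-04), 0.67 for EGR1 (adjusted p = 0.031) and 1.62 for MYC (adjusted p = 9.2e-06). The siTP63 effect (KYSE150 minus TE6) came to 1.46 for FOSL1 (adjusted p = 4.5e-04), 1.30 for FOSL2 (adjusted p = 7.8e-04), -0.81 for JUND (adjusted p = 0.018), 0.74 for ATF3 (adjusted p = 0.027), 1.38 for EGR1 (adjusted p = 3.1e-04), 0.93 for MYC (adjusted p = 0.0022) and 2.21 for IER3 (adjusted p = 6.3e-07). Some of these were lost in an alternative, namely FOSL2 for siBRDT and, for siTP63, EGR1 and JUND in TE6 minus KYSE180. The same held for EGR1 in KYSE150 minus KYSE180 and for JUND and ATF3 in KYSE150 minus TE6. Lines, tables and experiments coincide in these contrasts and cannot be told apart. Per the study's methods, KYSE150 was also grown in another medium with less serum than KYSE180 and TE6. Line and medium therefore cannot be told apart in the KYSE150 contrasts. Groups of 2 or 3 libraries were not tested for single deviating samples.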

How the results depend on the processing

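Of the values that changed sign, JUNB and JUND under siBRDT in TE6 were the ones that had been called, and the cause was not tested. Over all alternatives, 919 log2 fold changes kept their direction and their side of the threshold, 33 passed it, 10 no longer did and 33 changed sign. Differences of effects were followed only where they passed the threshold in the main fit, so gains could not appear. Of these, 402 kept it and 42 lost it. After rescaling to equal upper quartiles of the values above 0, the log2 fold change was 0.037 for JUNB in KYSE180 siBRDT, 0.044 for JUND in KYSE180 siBRDT, 0.14 for FOSL1 in TE6 siBRDT, 0.079 for IER3 in TE6 siBRDT, 0.17 for BRDT in KYSE180 siTP63 and 0.10 for MYC in KYSE150 siTP63. After rescaling over the tested genes, the log2 fold change was 0.0032 for JUNB in KYSE180 siBRDT, 0.010 for JUND in KYSE180 siBRDT, 0.15 for BRDT in KYSE180 siTP63 and 0.052 for MYC in KYSE150 siTP63. With edgeR, the log2 fold change was 0.0025 for JUND in KYSE180 siBRDT and 0.014 for MYC in KYSE150 siTP63. With the length and GC trend removed, the log2 fold change was -0.036 for JUNB in TE6 siBRDT, -0.12 for JUND in TE6 siBRDT, 0.27 for IER3 in KYSE180 siTP63, -0.10 for JUNB in TE6 siTP63, 0.064 for BRDT in TE6 siTP63 and 0.066 for IER3 in KYSE150 BRDT-OE. Leaving out 1 library in turn gave ranges of -0.021 to 0.11 for FOSL2 in KYSE180 siBRDT (sign changed without KYSE180 siBRDT replicate 2), -0.060 to 0.012 for JUNB in KYSE180 siBRDT (sign changed without KYSE180 siCont replicate 1 or KYSE180 siBRDT replicate 3), -0.053 to 0.066 for JUND in KYSE180 siBRDT (sign changed without KYSE180 siCont replicate 2 or KYSE180 siBRDT replicate 3), -0.33 to 0.072 for FOSL1 in TE6 siBRDT (sign changed without TE6 siBRDT replicate 1), -0.25 to 0.26 for MYC in TE6 siBRDT (sign changed without TE6 siCont replicate 2 or TE6 siBRDT replicate 2), -0.13 to 0.25 for ATF3 in KYSE180 siTP63 (sign changed without KYSE180 siCont replicate 1), -0.11 to 0.0094 for BRDT in KYSE180 siTP63 (sign changed without KYSE180 siCont replicate 2 or KYSE180 siTP63 replicate 1), -0.069 to 0.64 for JUND in KYSE150 siTP63 (sign changed without KYSE150 siTP63 replicate 2), -0.13 to 0.12 for MYC in KYSE150 siTP63 (sign changed without KYSE150 siCont replicate 1 or KYSE150 siTP63 replicate 2) and -0.0087 to 0.31 for FOSL2 in KYSE150 BRDT-OE (sign changed without KYSE150 cont replicate 3).

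Counts of the 10 genes that moved by over 1.5 times were as follows. Without the fold limit 1 gene was called up under siBRDT in KYSE180 and 2 with BRDT-OE. Rescaling over values above 0, for which the quartile is taken over the genes detected in each library (20995 in TE6 siBRDT replicate 1 and 16817 in replicate 2), gave 1 down under siBRDT in TE6, 4 up under siTP63 in KYSE180, 4 higher and 0 lower for the TE6 minus KYSE180 siBRDT effect, 1 higher for the same contrast of siTP63, 1 lower for KYSE150 minus KYSE180, 0 lower for KYSE150 minus TE6 and 0 lower for TE6 siBRDT minus siTP63. Rescaling over tested genes gave 4 up under siTP63 in KYSE180, 4 higher for the siBRDT contrast of TE6 and KYSE180 and 2 lower for KYSE150 minus KYSE180, and edgeR gave 4 and 1 in those 2 contrasts. With the length and GC trend removed 0 were up under siBRDT in TE6, 4 under siTP63 in KYSE180, 2 under siTP63 in KYSE150 and 2 with BRDT-OE. Smaller moves under these settings were, without the fold limit, 6 down with BRDT-OE, 5 down under siBRDT in KYSE180 and 3 up under siTP63 in KYSE180 and in TE6, and, after rescaling over values above 0, 3 up under siBRDT and 4 down under siTP63 in TE6, 2 higher for KYSE150 minus KYSE180 and 5 higher for TE6 siBRDT minus siTP63. Rescaling over tested genes gave 5 down with BRDT-OE, 2 higher for KYSE150 minus KYSE180 and 7 lower for KYSE180 siBRDT minus siTP63, edgeR gave 2 and 6 in these 2 contrasts, and removal of the trend gave 3 down under siBRDT in TE6. The settings on trend and tested genes were chosen after seeing the data.

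Leaving out 1 library in turn, the lone sample of an arm being assumed to vary like the other groups, gave 0 to 3 up and 1 to 2 down under siBRDT in TE6 (0 up without siCont replicate 2, 3 up without siBRDT replicate 1), 3 to 4 down under siBRDT in KYSE180, 2 to 3 up under siTP63 in KYSE180, 4 to 5 down under siTP63 in TE6 and 4 to 5 down with BRDT-OE. Of the contrasts, it gave 0 to 1 lower for siBRDT TE6 minus KYSE180, 3 to 4 lower for siTP63 TE6 minus KYSE180, 2 to 6 higher and 0 to 1 lower for KYSE150 minus KYSE180 (6 without KYSE150 siCont replicate 1), 5 to 7 higher and 0 to 1 lower for KYSE150 minus TE6, 4 to 5 lower for KYSE180 siBRDT minus siTP63, and 3 to 4 higher and 0 to 2 lower for TE6 siBRDT minus siTP63. The other counts did not move when 1 library was left out.

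Replicate numbers did not pair the samples by their deviations (correlations from -0.70 in KYSE150 siTP63 to 0.18). With the replicate block 22 of 24 counts stayed within 1.5 times, and 0 genes were lower in the 2 remaining ones, KYSE150 minus TE6 and TE6 siBRDT minus siTP63. Crossing the pairs in KYSE150 siTP63, a setting chosen after seeing the data, gave 3 members up and 2 down, and 1626 and 1774 of all genes, against 89 and 48 with the numbered block.

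Over all genes, calls in KYSE150 siTP63 went from 0 to 27 up and 18 down without the filter, 201 and 261 with DESeq2, 233 and 343 with the trend removed, and 108 to 182 up and 77 to 177 down without 1 library. Rescaling over values above 0 took calls down from 2419 to 588 under siBRDT and from 2742 to 1604 under siTP63 in TE6, and leaving out TE6 siCont replicate 2 took the former to 1483. Rescaling over tested genes took calls up with BRDT-OE from 1343 to 890. Without the fold limit 3893 genes rose and 4044 fell under siBRDT in KYSE180 (1972 and 2143 with it), and 3326 and 3195 with BRDT-OE (1343 and 2043 with it). Depth limits FOSL1 in TE6 under siTP63 most, at 16 and 5 reads.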

Other observations

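Control libraries of the same line differed between experiments. In RPM (reads scaled to a common library total of reads in genes), EGR1 was at 115 ± 12.5 (SD, n = 3) in siCont of the BRDT experiment in KYSE180 and 9.45 ± 1.28 (SD, n = 2) in siCont of the TP63 experiment. FOS was at 9.75 ± 0.19 and 1.73 ± 0.0062 in the same groups, and JUN at 29.1 ± 1.95 and 8.95 ± 2.76. In KYSE150, EGR1 was at 139 ± 25.4 (n = 3) in the electroporated controls and 7.15 ± 0.65 (n = 2) with siCont, ATF3 at 380.4 ± 19.0 and 88.3 ± 10.5, and JUN at 197 ± 29.8 and 36.8 ± 7.10. These tables were made and normalised separately, so the experiment and its handling cannot be told apart, and no test was run between them.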
